A study of Mus musculus with 11 samples.

Results

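ILMN_1241001 and ILMN_2899599 are a pair of Illumina bead-array probes, 2 of the 26512 probes measured, that stood at a clearly higher level in 5 livers and at a clearly lower level in the other 6. Both divided the 11 livers in the same way, and the division ran through the Sorafenib 14 d group and through the vehicle group, while all 4 livers given Sorafenib for 83 d were on the lower side. The probes were chosen by this very pattern in these arrays, so their levels, the gap between them and their likeness to each other are given as a description, with no test. No gene was assigned to either probe here, and whether the pair reads 1 transcript or 2 is not known from the files used.

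Whole liver lysates came from iAST mice of the strain C57BL6n, and the source labels call every sample a tumour liver. The groups were Sorafenib by mouth at 60 mg/kg for 83 d (4 livers), the same dose for 14 d (4 livers) and vehicle solution for 14 d (3 livers). The age label, in weeks, is the same for all of them, no sex is given, and the labels describe neither the iAST allele nor how tumours arose. Whether the arrays came from as many mice is not stated either. Vehicle at 83 d was not analysed here, and therefore the 83 d livers differ from vehicle both in time and in drug.

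Sorafenib is an oral drug for hepatocellular carcinoma that inhibits several kinases, among them RAF and the receptors of VEGF and PDGF, which drive vessel growth. On a bead array, labelled RNA binds to a probe of fixed sequence and the brightness of its beads is read, so a probe reports the stretch of transcript that it matches, and a dim probe keeps a background brightness that is not RNA. Lysed whole liver mixes hepatocytes with bile duct, vessel wall, stromal and immune cells and with tumour cells where there are tumours. In such bulk samples, fewer cells of a type and less RNA per cell cannot be told apart.

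Array medians ran from 98.7 to 99.9 intensity units, so no array stood apart by its median. The medians lie near the lowest intensity of all probes, 74.1, and the processing before deposit is not known. They therefore do not show that brighter signal was alike between arrays. Levels below are log2(intensity + 16) after quantile normalization unless they are called intensities. On that scale the median over all probes and arrays was 6.85 and the upper quartile 7.61. No background level was determined here, so the share of probes close to it is not known.

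ILMN_1241001 was above the array median in the higher livers and below it in the lower ones. Its deposited intensity was 86.5, 93.0, 82.6 and 92.4 in Sorafenib 83 d replicates 1 to 4. In Sorafenib 14 d replicates 1 to 4 it was 89.0, 388, 379 and 328. In vehicle replicates 1 to 3 it was 85.9, 477 and 327. Sorafenib 14 d replicates 2 to 4 and vehicle replicates 2 and 3 were thus at 327 or above, and all 83 d livers and replicate 1 of both 14 d groups shared a dim level between 82.6 and 93.0. In the higher livers 83.9% to 87.8% of the probes of the same array were dimmer, whereas in the lower livers only 1.42% to 31.6% were.

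ILMN_2899599 was above the array median on both sides of the division. Its intensity was 175, 244, 220 and 229 in Sorafenib 83 d replicates 1 to 4. In Sorafenib 14 d replicates 1 to 4 it was 215, 1090, 1348 and 607. In vehicle replicates 1 to 3 it was 175, 1395 and 899. The same 5 livers were high, from 607 to 1395, and the same 6 were low, from 175 to 244. In the higher livers 90.1% to 95.1% of probes were dimmer, and in the lower livers 74.4% to 80.0%. Without detection calls this rank does not show whether the transcript was present in the lower livers.

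**Figure D1:**
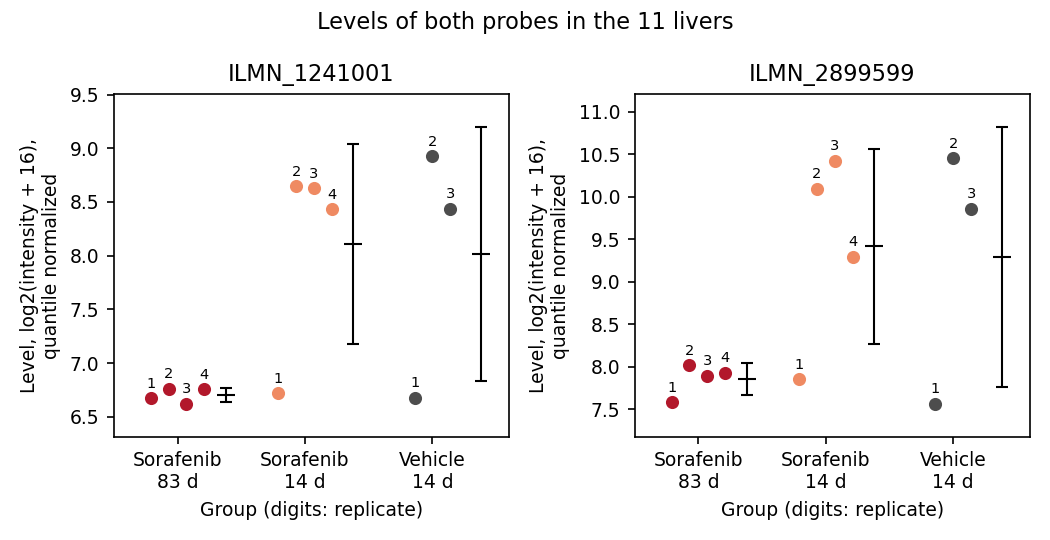
Level of each probe, as log2(intensity + 16) after quantile normalization, in the 83 d Sorafenib, 14 d Sorafenib and vehicle livers; points are arrays, digits are replicate numbers, and bars give the group mean and SD. For ILMN_1241001, 5 livers lie at 8.43 to 8.93, and all 4 livers of 83 d and replicate 1 of both 14 d groups lie at 6.62 to 6.76.

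On the log2 scale ILMN_1241001 ran from 8.43 to 8.93 in the 5 higher livers and from 6.62 to 6.76 in the 6 lower ones. The gap, from the lowest of the higher livers to the highest of the lower, was 1.67, and it took up 0.726 of the whole range of 2.30. It was wider than the range within the higher livers (0.49) and within the lower livers (0.14). ILMN_2899599 ran from 9.29 to 10.45 in the higher livers and from 7.57 to 8.02 in the lower ones. Its gap of 1.27 was 0.441 of a range of 2.89 and was only slightly wider than the range within the higher livers, 1.16. As ratios of deposited intensities, the dimmest higher liver exceeded the brightest lower liver 3.52-fold for ILMN_1241001 and 2.49-fold for ILMN_2899599. On the normalized log2 scale Sorafenib 14 d replicate 4 bordered the gap above and Sorafenib 83 d replicate 2 below for both probes. By deposited intensity the dimmest higher liver for ILMN_1241001 was vehicle replicate 3, at 327, next to 328 in Sorafenib 14 d replicate 4. Background left in the intensities makes these ratios smaller than the ratios of transcript, most of all for ILMN_1241001, and after a normexp background correction the log2 gaps were 3.18 and 1.60.

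At 14 d the levels did not follow treatment. ILMN_1241001 averaged 6.70 ± 0.07 in 83 d Sorafenib livers (SD, n = 4), 8.11 ± 0.93 in 14 d Sorafenib livers (SD, n = 4) and 8.01 ± 1.18 in vehicle livers (SD, n = 3). The mean of ILMN_2899599 was 7.86 ± 0.19 at 83 d (SD, n = 4), 9.42 ± 1.15 at 14 d (SD, n = 4) and 9.29 ± 1.52 with vehicle (SD, n = 3). Between 14 d Sorafenib and vehicle the means differed by 0.09 for ILMN_1241001 and 0.12 for ILMN_2899599, far less than the SD of either group. For ILMN_1241001 both means fall in the empty stretch between the levels, and for ILMN_2899599 a single liver, Sorafenib 14 d replicate 4 at 9.29, lay close to them.

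The 83 d group was uniform and low, so the phrase "regardless of treatment" holds for the 14 d groups only. Its means were below those of 14 d Sorafenib by log2 differences of -1.40 and -1.56 for ILMN_1241001 and ILMN_2899599, and below vehicle by -1.31 and -1.43. The groups nevertheless overlapped. Sorafenib 14 d replicate 1, at 6.72 and 7.85, lay within the 83 d ranges of 6.62 to 6.76 and 7.58 to 8.02. Vehicle replicate 1, at 6.68 and 7.57, lay within the range of ILMN_1241001 and just below that of ILMN_2899599. Likewise the higher livers of 14 d Sorafenib, at 8.43 to 8.65 for ILMN_1241001, overlapped the higher vehicle livers, at 8.44 and 8.93. The differences between group means went with the number of livers on the higher side, which was 0 of 4 at 83 d, 3 of 4 at 14 d and 2 of 3 with vehicle.

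Among all probes, few varied as much between livers of 1 group, but the pair was chosen for lying at 2 levels within groups. Its places in the rankings below follow in part from that choice and are a description. The pooled within-group SD was 1.04 for ILMN_2899599, the second largest of 26512 probes, and 0.822 for ILMN_1241001, the 19th largest. The median over all probes was 0.07 and the 99th percentile 0.40. A step of at least 1 on the log2 scale between neighbouring livers, with 3 or more livers on each side, was present in 16 probes, which is 0.0604% of all. The pair made up 2 of them, in 4th and 9th place by size, and no other of the 16 divided the livers in this way. In 6 of the 16 the step set the 83 d livers above the others, and in the remaining 8 it fell elsewhere. Some of these 8 parted all vehicle livers from all Sorafenib livers. In the others, most or all of the 83 d livers lay above, in part with 1 Sorafenib 14 d liver.

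**Figure D2:**
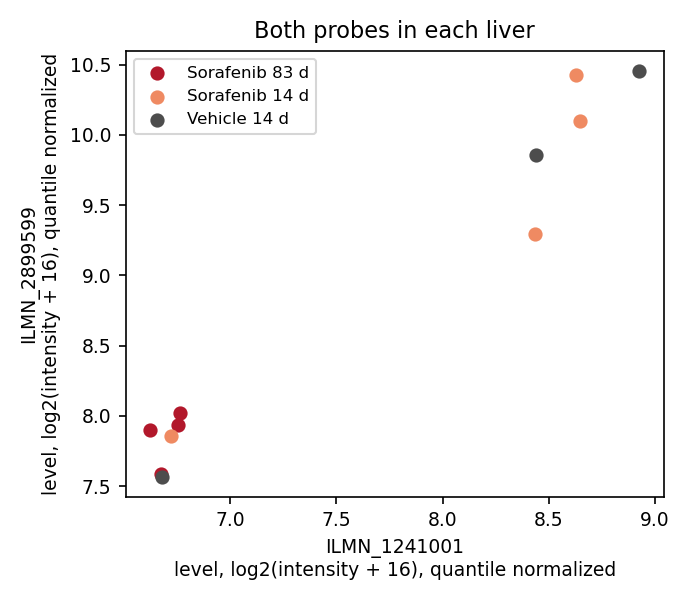
Level of ILMN_2899599 against that of ILMN_1241001 in each of the 11 livers, both as log2(intensity + 16) after quantile normalization, coloured by group. The livers form a higher cluster of 5 and a lower cluster of 6, and the step between them is 1.67 along the horizontal and 1.27 along the vertical axis.

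Over the 11 arrays Pearson's r was 0.980 and Spearman's rho 0.927, but a correlation over separate clusters mostly restates that both probes have the same clusters. Over the 6 lower livers alone r was 0.491 and rho 0.60, where ILMN_1241001 was below the array median. In the higher livers the order was nearly shared. Vehicle replicate 2 was highest for both, at 8.93 and 10.45, and Sorafenib 14 d replicate 4 lowest for both, at 8.43 and 9.29. Vehicle replicate 3 was next to lowest for both, at 8.44 and 9.86. With the treatment group means subtracted, r over the 11 arrays was 0.969. Replicate 1 of both 14 d groups still stands apart after this step, so that value too mostly restates the division.

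The division also followed the position of the array on its chip. The labels give a position letter and a chip for each array, with 8 arrays on 1 chip and Sorafenib 14 d replicates 1 to 3 on a second. Every higher liver was at position A, G or H, and every lower liver at B to F. These sets of letters were read off the division. Only F, G and H occurred on both chips, so only there could arrays of the same position have differed. Position F held replicate 1 of vehicle on the first chip and replicate 1 of Sorafenib 14 d on the second, and both were low, while G and H held replicates 2 and 3 of the same groups, and all 4 were high. The 83 d livers filled B to E, and the only array at A was Sorafenib 14 d replicate 4. Both levels occurred on both chips, with 3 higher and 5 lower arrays on the first and 2 higher and 1 lower on the second. Position and the division thus cannot be told apart for the pair. Over the whole table, the arrays at A, G and H lay wholly above those at B to F in 93 of 26512 probes, 0.351%, and wholly below in 70, 0.264%. These are the higher and lower arrays of the division itself, and the 93 include the pair. The counts therefore carry no separate information on position.

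**Figure D3:**
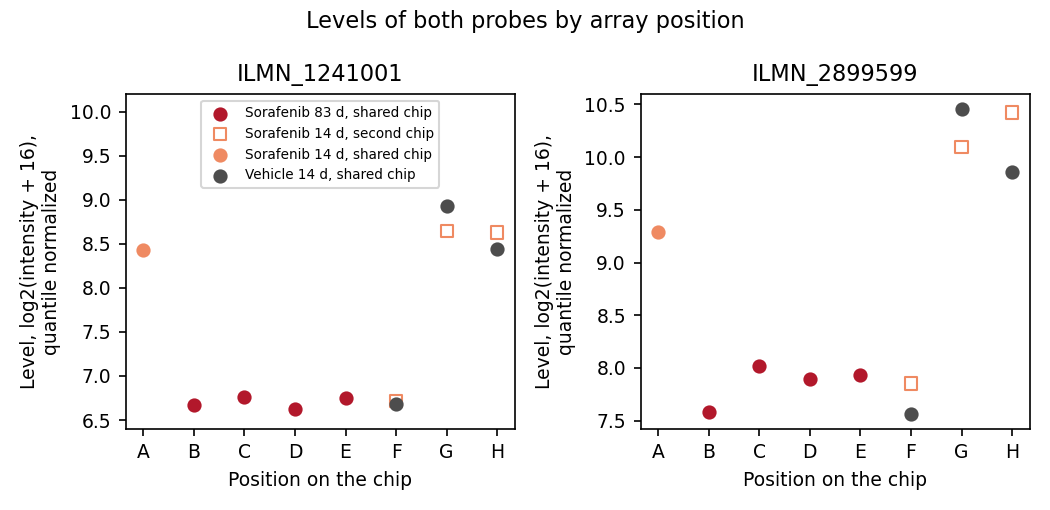
Level of each probe, as log2(intensity + 16) after quantile normalization, by the position letter of the array on its chip; colours are groups, filled circles the chip of 8 arrays and open squares the second chip of 3. Arrays at A, G and H are high, 8.43 to 8.93 for ILMN_1241001, and those at B to F are low on both chips.

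Other probes followed the division, but none with a gap of that size. The division was drawn at the widest step of the pair itself, so this comparison favours the pair and is a description. Apart from the pair, 91 probes were higher in all 5 higher livers than in all 6 lower ones. Together with the pair they are the 0.351% of all probes given above. Their gaps were mostly small, with a median of 0.01 and a 90th percentile of 0.06, and 88 of the 91 were under 0.1. The widest gap was 0.21, against 1.67 and 1.27 for the pair. A further 70 probes, 0.264%, had the order turned round, so that they were lower in the 5 livers where the pair was higher. Their median gap was 0.01 and the widest 0.38. A gap of at least 0.25 was found in 3 of the 70, which is 0.0113% of all probes, and in 0 of the 91, so that in the same order the pair alone made up the 0.00754% of probes with such a gap.

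**Figure D4:**
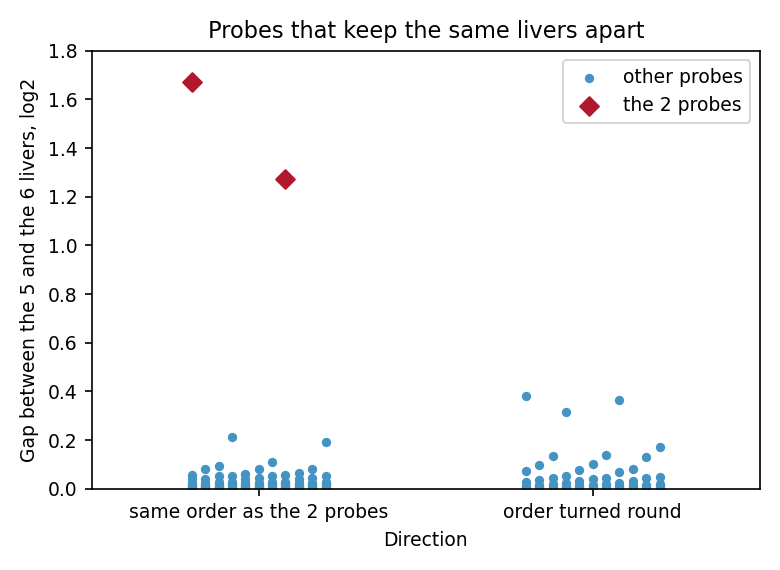
Gap on the log2 scale between the 5 and the 6 livers for each probe that keeps them apart, in the same order as the pair (93 probes) or turned round (70 probes); points are spread sideways only for legibility. The pair (diamonds) is at 1.67 and 1.27, and the widest other gaps are 0.21 in the same order and 0.38 turned round.

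The closest mirror images of the pair were ILMN_2649129 and ILMN_3123341, which had the 2 widest turned-round gaps and also the 2 lowest correlations with the pair. ILMN_2649129 was at 9.34, 9.30, 9.34 and 9.18 in Sorafenib 83 d replicates 1 to 4. In Sorafenib 14 d replicates 1 to 4 it was at 9.51, 8.75, 8.79 and 8.66, and in vehicle replicates 1 to 3 at 9.43, 8.80 and 8.69. Replicate 1 of both 14 d groups was thus high together with all 83 d livers, and the 5 livers that were high for the pair were confined here to 8.66 to 8.80. The gap was 0.38, or 0.448 of the range, and Pearson's r with the mean of the pair was -0.93 over the 11 arrays (rho = -0.755). Such an r mostly restates the 2 clusters, and over the lower livers of the pair alone it was -0.425.

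ILMN_3123341 showed the same turned-round order at a dim level. It was at 7.22, 7.30, 7.34 and 7.24 in Sorafenib 83 d replicates 1 to 4. In Sorafenib 14 d replicates 1 to 4 it was at 7.35, 6.82, 6.82 and 6.79, and in vehicle replicates 1 to 3 at 7.18, 6.76 and 6.77. The 5 livers that were high for the pair all lay under the array median of 6.85 here, within 6.76 to 6.82, and the other 6 lay between 7.18 and 7.35. The gap was 0.36, or 0.616 of the range, a larger share than for ILMN_2899599, and r with the pair was -0.95 (rho = -0.682). Over the lower livers of the pair alone r was 0.592, so the turned-round order did not extend to the order within them. The gap of ILMN_3123341 was 0.97 after the normexp correction, which changes dim values most, and 0.29 with an offset of 50. For ILMN_2649129 these gaps were 0.45 and 0.36. In ILMN_2649129 and ILMN_3123341 the gap exceeded the range within the 5 livers and within the 6, which held for no other of the 91 and 70 probes.

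**Figure D5:**
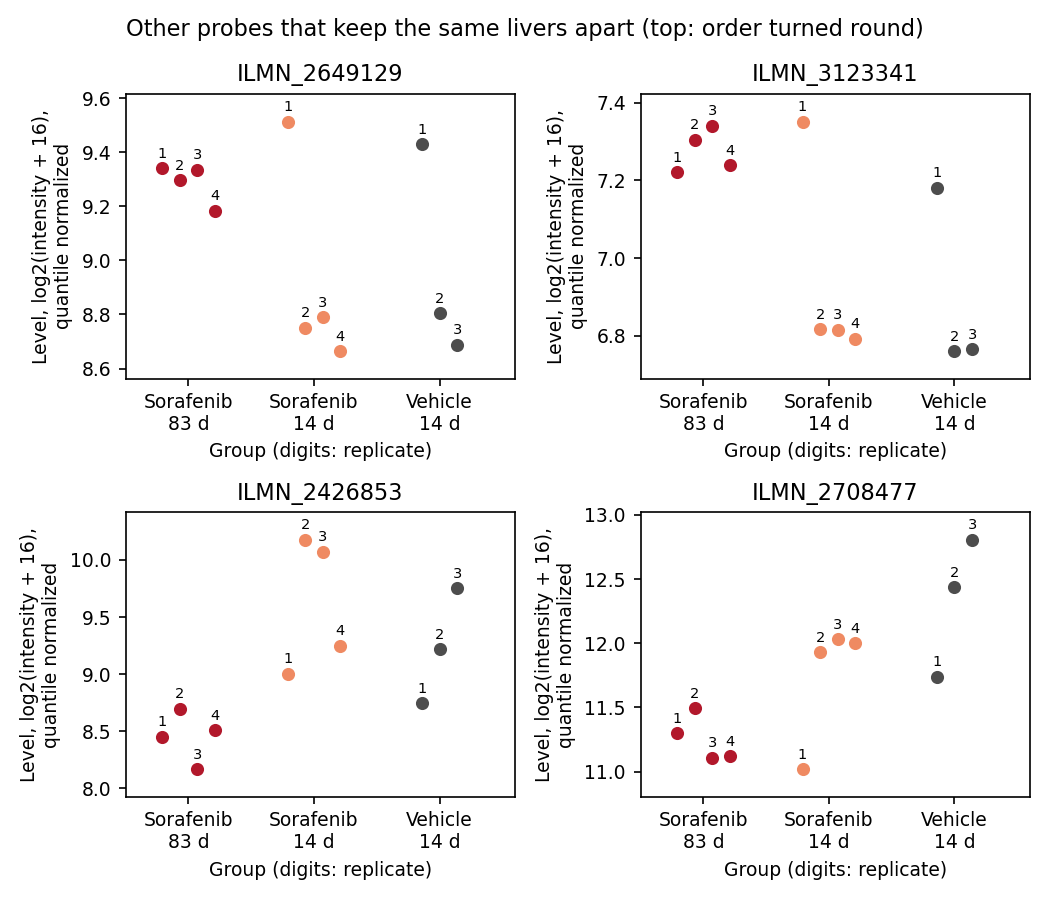
Level, as log2(intensity + 16) after quantile normalization, of the 2 probes with the widest turned-round gap (top) and of the 2 with the widest gap in the same order as the pair (bottom), by group; points are arrays and digits replicate numbers. In the 5 livers that are high for the pair the top probes are at 8.66 to 8.80 and 6.76 to 6.82, against 9.18 to 9.51 and 7.18 to 7.35 in the other 6, and the bottom ones spread more evenly.

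The third probe with a gap of at least 0.25, ILMN_2976211, which was singled out after its values were seen, differed in kind. Its gap was 0.32, or 0.12 of its range. The 83 d livers, at 10.08, 9.68, 8.93 and 9.15, were all above Sorafenib 14 d replicate 1, at 8.60, and vehicle replicate 1, at 8.46. The 5 livers that were high for the pair spread from 7.44 to 8.14. Thus it had no shared level in the 6 livers, unlike the pair, whose 83 d livers sat where replicate 1 of the 14 d groups did.

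In the same order as the pair, the widest gaps belonged to ILMN_2426853 and ILMN_2708477, and neither had 2 levels. ILMN_2426853 ran from 9.22 to 10.18 in the 5 higher livers and from 8.17 to 9.003 in the 6 lower ones, with a gap of 0.21 that was 0.107 of its range. ILMN_2708477, a bright probe, ran from 11.93 to 12.81 in the higher livers and from 11.02 to 11.74 in the lower ones, with a gap of 0.19. By correlation, ILMN_2738511 and ILMN_2853342 were most like the pair, both with r = 0.89 over the 11 arrays. ILMN_2738511 was dim in every liver, at 6.75 to 6.88 in the higher and 6.69 to 6.75 in the lower livers. ILMN_2853342 was at 7.92 to 8.10 in the higher livers and at 7.62 to 7.81 in the lower ones, a gap of 0.11. The gap was 0.002 for ILMN_2738511, and the gaps of these probes took up 0.011 and 0.230 of their ranges. Over the 6 lower livers alone their r with the pair was -0.397 and -0.0009. The likeness is therefore mostly one of which livers were higher, not of separate levels or of size. These probes also share arrays and normalization with the pair.

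With the 83 d livers left aside, the division set 5 livers of 14 d against replicate 1 of each 14 d group. Over these 7 arrays the gap was 1.71 for ILMN_1241001 and 1.44 for ILMN_2899599. So small a set is kept apart by many probes, 3.73% in the same order and 3.72% turned round. Among the other probes the widest gaps were 0.32 in the same order and 0.63 turned round, and the probe with 0.63 was again ILMN_2649129. No probe beside the pair reached a gap of 1 in either direction.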

How the data were processed

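Total RNA of whole mouse liver, labelled with biotin, was measured on 11 Illumina bead arrays read in 1 colour. The table that the authors deposited holds linear intensity values of 26512 probes, by the look of the numbers. How the authors corrected and normalized the intensity values before deposit is not given in the sources used here. Detection calls were not used here. The lowest intensity was 74.1, so some background is still contained in the values.

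Values were set to log2(intensity + 16) and quantile normalized over arrays. The arrays were ordered by the mean of both probes, and the widest step between neighbours gave 5 higher and 6 lower arrays. For every probe the gap between these arrays and Pearson's r with the mean of the pair were computed. Both were also computed on simulated data with planted shifts, which were far wider than the gaps of the other probes here. The recovery of small gaps was thus not checked. No hypothesis test was made. The probes were chosen with earlier results of these data known. Other probes are named by a fixed rule: the 2 widest gaps and the 2 extreme correlations in each direction. ILMN_2976211 and ILMN_1214531 fall outside it and were named after their values were seen. Lists of marker genes were not used, because probes had no gene names here, so the tissue label was not checked, and no sequence is printed. Python 3.11.15, numpy 2.4.6, pandas 2.3.3, scipy 1.17.1 and matplotlib 3.10.9 were used, and limma 3.58.1 in R 4.3.3 for a normexp correction. Alternatives were other normalizations, offsets of 1 and 50, the chip of 8 arrays alone, group means subtracted, only brighter probes, minimum gaps, and each array left out. Normexp and the 14 d arrays alone were added after the data were seen. The number of arrays limits the precision.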

Additional observations from a re-analysis of the deposited data

Results flagged for a closer look

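In groups of 4 livers, values were picked out where the lowest or the highest liver stood apart from the rest by Dixon's criterion, the gap to its nearest neighbour over the whole range of the group. Of 18 sets of values, from the pair and the other named probes in both Sorafenib groups, 4 passed, all in the 14 d group and all because of replicate 1. This criterion flags about 1 in 20 sets by chance, and the probes were named for keeping that array apart, so the flags are not independent of the choice. The ratio was 0.889 for ILMN_1241001 and 0.902 for ILMN_2708477, where replicate 1 was lowest. It was 0.854 for ILMN_2649129 and 0.956 for ILMN_3123341, where replicate 1 was highest. ILMN_2899599 did not pass, since Sorafenib 14 d replicate 4, at 9.29, was itself below replicates 2 and 3, at 10.10 and 10.42.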

How the results depend on the processing

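Under 18 alternatives of normalization, offset, background or arrays used, the same livers, as far as they were included, stood on each side of the division. The gap of ILMN_1241001 was 1.82 with an offset of 1, 1.41 with an offset of 50 and 3.18 after normexp, which changes dim values most, and 1.67 to 1.68 with each array left out. The gap of ILMN_2899599 was 1.27 to 1.84 with each array left out, the highest without Sorafenib 14 d replicate 4. The correlation of the pair was 0.975 to 0.992 with each array left out. The counts of other probes that keep the livers apart depend strongly on how many arrays are used and on which. With each array left out they were 120 to 260 in the same order and 103 to 255 turned round, highest without vehicle replicate 1. On the chip of 8 arrays they were 628 and 542, and over the 7 arrays of 14 d 986 and 986. Over the brighter probes 55 were left in the same order. With a gap of at least 0.5 over all 11 arrays the counts were 0 and 0, and with at least 0.25 they were 0 and 3. Over all 11 arrays, the widest gap of another probe in the same order was 0.251 without quantile normalization (ILMN_2708477). After normexp it was 0.2503 (ILMN_2426853). It was wider with some arrays left out, at 0.475 without vehicle replicate 1 and 0.471 without Sorafenib 14 d replicate 1. On the chip of 8 arrays it was 0.495, and over the 7 arrays of 14 d 0.324. No other probe had a gap as wide as that of ILMN_2899599 under these alternatives, except ILMN_1214531, turned round at 1.29 without vehicle replicate 1, where the gap of ILMN_2899599 was 1.27. Over all 11 arrays the gap of ILMN_1214531 was only 0.135, or 0.027 of its range of 5.02. Its wide step, of 1.61, set the 83 d livers above the others. No fit with the replicate number as a block was made, since the levels are a description without a test. Background left in the intensities limits what the dim levels of ILMN_1241001 show.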
